A study of Mus musculus with 2 samples.

Results

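Metabolic nuclear receptors of the liver were followed here as a set of 10 genes in liver RNA of high-fat diet (HFD)-fed mice with and without Wee1-AS overexpression. The members were picked by gene symbol, with earlier results of these data known, as Rxra, Nr1h2, Nr1h3, Nr1i2, Nr1i3, Nr3c1, Thrb, Nr5a2, Nr2f2 and Nr2f6. They made up 10 of the 45777 gene symbols and 86 of the 129299 transcripts of the table, and all 10 were among the 15857 genes that passed the filter on low counts. The study asked what the long non-coding RNA Wee1-AS does to metabolism and the cell cycle in the liver. Both groups were C57BL/6 mice on the HFD, and both received an adeno-associated virus (AAV) through the retro-orbital route. The control group, AAV-GFP, received a vector for green fluorescent protein, and the other group, AAV-Wee1-AS, received the lncRNA. As the study's methods describe it, the mice entered the diet at 7 weeks of age, stayed on it for 18 weeks and were infused at week 13, so that 5 weeks lay between the virus and the end. The vector described there was of the AAV9 serotype and carried the CMV promoter, which is active in many cell types and is not restricted to hepatocytes. The labels list 1 library for each group and do not say whether a library holds 1 animal or a pool, while the design text speaks of 4 liver samples. No replicate check was therefore possible, no test was run, and each comparison is between 2 libraries.

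Nuclear receptors are transcription factors whose ligand-binding domain senses small lipophilic molecules such as steroids, oxysterols, bile acids, thyroid hormone and xenobiotics. Many of them bind DNA as a heterodimer with a retinoid X receptor, of which RXRα is the main form in the liver, and exchange corepressors for coactivators when ligand arrives. In hepatocytes they set the transcription of genes for cholesterol and bile acid handling, lipogenesis, gluconeogenesis and drug metabolism.

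The estimated counts came to 55466182 in AAV-GFP and to 48079335 in AAV-Wee1-AS, of which the top 20 genes took 24.0% and 24.2%. All 10 hepatocyte markers listed for the check of the tissue were detected in both libraries, at a summed level of 91017 TPM (a level per transcript length, scaled to the same sum in each library) in AAV-GFP and 97526 TPM in AAV-Wee1-AS. Alb alone made up 37459 and 53289 TPM of these sums. Of the 10, 2 were above 2-fold and none below 0.5-fold, beside 22.5% and 8.43% of all genes. None was past 2-fold with the trends described next removed, beside 6.98% of all genes above and 7.76% below. Across all genes, the ratio between the libraries followed the base composition of the transcript, with a Spearman coefficient of -0.67 between the log2 ratio and the GC content over 14995 genes, and of 0.36 with transcript length. Both coefficients run across genes, which are no replicates, and stand as descriptions. Values after removal of both trends by a smooth fit are therefore given beside the ratio of each gene, while ratios of single transcripts and starts are given as scaled counts only. With 1 library per group, a sequence-dependent difference between the library preparations and a difference between the livers cannot be told apart.

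The level of the receptors, given in TPM and so comparable between genes, ran in the AAV-GFP liver from 2.04 TPM for Thrb to 228 TPM for Rxra. Rxra, Nr1h3, Nr1i3, Nr2f6, Nr1i2 and Nr1h2 lay between 41.4 and 228 TPM there, while Nr5a2, Nr2f2, Nr3c1 and Thrb lay between 2.04 and 5.81 TPM. In the AAV-Wee1-AS liver the order ran from 5.91 TPM for Nr2f2 to 179 TPM for Rxra. The range was narrower because the scarce receptors were higher and most of the abundant ones lower. Rxra was 112 times as abundant as Thrb in AAV-GFP and 29.5 times in AAV-Wee1-AS. The 10 receptors together summed to 654 TPM and 548 TPM, of which Rxra made up 34.8% and 32.7%.

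**Figure D1:**
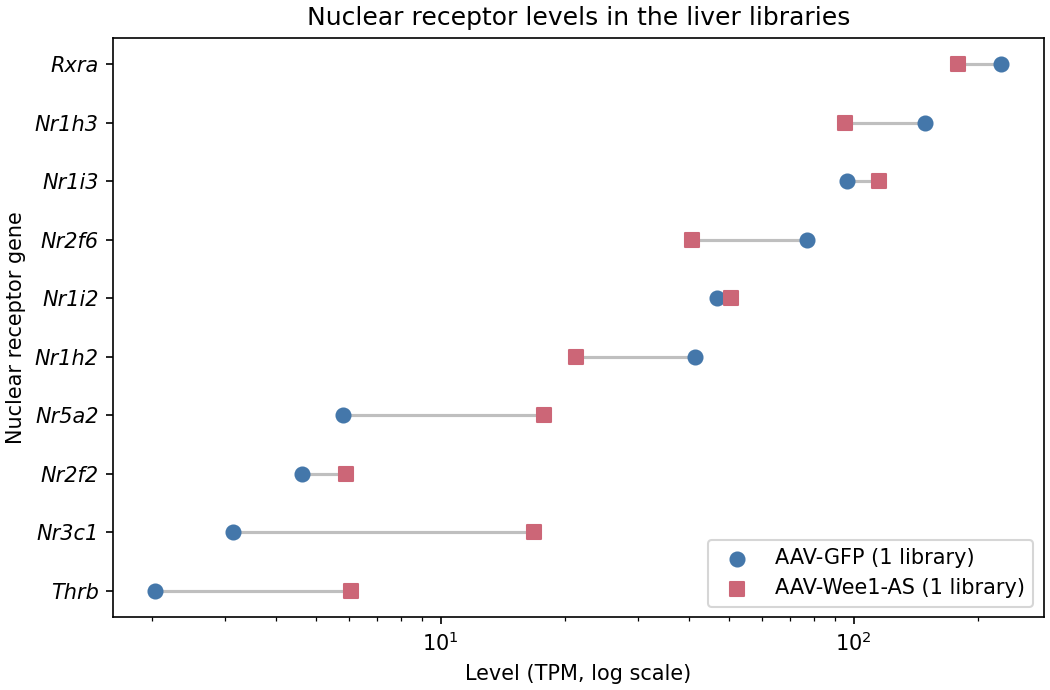
Level of the 10 nuclear receptor genes (vertical axis) in TPM on a log axis, with 1 point for each library, circles for AAV-GFP and squares for AAV-Wee1-AS. The 4 receptors under 6 TPM in AAV-GFP are all higher in AAV-Wee1-AS, and Nr3c1 shows the widest gap, from 3.15 to 16.8 TPM.

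Next, the scaled counts of AAV-Wee1-AS were divided by those of AAV-GFP and given as log2 ratios with an exact 95% counting interval. The interval covers counting error only, and it leaves out differences between animals and the error of assigning reads to transcripts. It treats the estimated counts as independent reads. The study's reads were paired-end, and both ends of a fragment may enter a count, so the interval can be too narrow. Nr3c1, Thrb and Nr5a2 were above 2-fold, which makes 3 of 10 members (30.0%), beside 22.5% of all genes. None of the 10 was below 0.5-fold, beside 8.43% of all genes. In either direction 31.0% of all genes were past 2-fold, so the share among the receptors was near that of the genes at large. Of the 10, 6 were higher and 4 lower, with a median log2 ratio of 0.25, beside -0.00205 for all genes. The counting interval excluded 0 for all 10, even for Nr1i2 at 0.14 [0.08, 0.21], and lay wholly above 2-fold for 3. The share of all genes with such intervals is not given here, so neither number sets the receptors apart from other genes. With the GC and length trends removed, no member was above 2-fold (6.98% of all genes) and none below 0.5-fold (7.76% of all genes). On that scale 7 were higher and 3 lower, and the median was 0.19, beside -0.00051 for all genes.

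**Figure D2:**
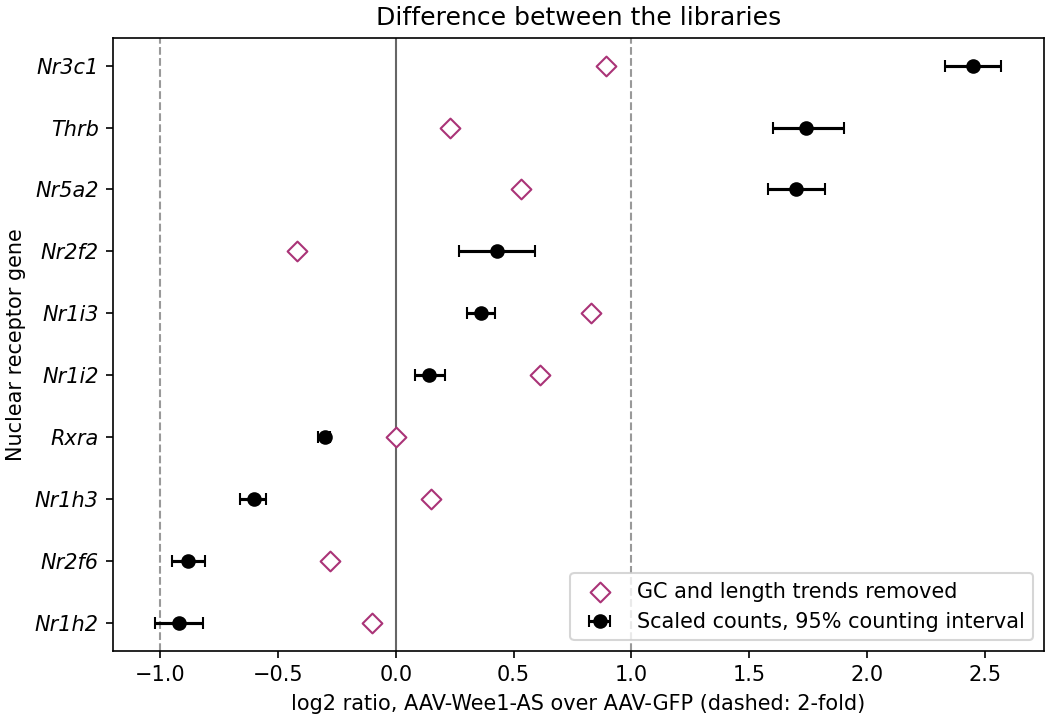
The log2 ratio of AAV-Wee1-AS over AAV-GFP (horizontal axis) for each receptor gene, as scaled counts with the 95% counting interval (filled circles) and after removal of the GC and length trends (open diamonds, no interval). Dashed lines mark 2-fold: Nr3c1, Thrb and Nr5a2 lie beyond the right one as scaled counts and inside it with the trends removed.

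Rxra encodes RXRα, the partner with which LXR, PXR, CAR and the thyroid hormone receptors form heterodimers. The gene (chr2:27676445-27763319, build mm10, plus strand) had 37890 counts in AAV-GFP and 25323 in AAV-Wee1-AS. It was the most abundant of the 49 nuclear receptors in AAV-GFP and came after Hnf4a in AAV-Wee1-AS. The log2 ratio was -0.30 [-0.33, -0.28], a 1.23-fold lower level. With the trends removed it was 0.00186, so that the lower level of the AAV-Wee1-AS library was no longer seen. With the length trend alone removed it was -0.79. The transcripts of Rxra differ in where they start, and the 5 annotated starts did not share 1 ratio. Variant 1, which starts 0.756 kb downstream of the first annotated start, held 19148 and 14457 counts, a log2 ratio of -0.13 [-0.16, -0.10]. The model transcript X1, from the first start itself, held 9618 and 7272 counts with the same ratio of -0.13 [-0.17, -0.08]. Variant 2, which starts 32.8 kb downstream, held 6081 and 3273 counts, a log2 ratio of -0.62 [-0.68, -0.55]. The model transcript X2, which starts 58.7 kb downstream, held 2779 counts in AAV-GFP and 244 in AAV-Wee1-AS, and its share of the gene was 7.33% and 0.964%. Its log2 ratio of -3.22 [-3.43, -3.04] was the lowest among the named Rxra transcripts. The ratios were thus lower for the 3 starts that lie 32.8 to 58.7 kb downstream than for the 2 upstream ones. RefSeq promoter windows (GRCm38.p6, 250 bases before to 50 after the start) were at hand for variant 1 and variant 2, and they are shown because these 2 starts gave unequal ratios. Capitals mark 2 motifs on either strand, with overlapping copies counted. The GC box is GGGCGG, which reads CCGCCC on the other strand. The core motif of nuclear receptor binding sites is AGGTCA, which reads TGACCT on the other strand.
Rxra variant 1: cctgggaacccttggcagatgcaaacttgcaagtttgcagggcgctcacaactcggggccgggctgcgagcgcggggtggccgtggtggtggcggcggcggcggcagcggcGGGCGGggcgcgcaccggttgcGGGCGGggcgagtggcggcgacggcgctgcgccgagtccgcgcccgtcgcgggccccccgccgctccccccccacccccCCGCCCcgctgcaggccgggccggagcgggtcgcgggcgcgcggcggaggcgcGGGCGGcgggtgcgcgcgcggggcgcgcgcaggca
Rxra variant 2: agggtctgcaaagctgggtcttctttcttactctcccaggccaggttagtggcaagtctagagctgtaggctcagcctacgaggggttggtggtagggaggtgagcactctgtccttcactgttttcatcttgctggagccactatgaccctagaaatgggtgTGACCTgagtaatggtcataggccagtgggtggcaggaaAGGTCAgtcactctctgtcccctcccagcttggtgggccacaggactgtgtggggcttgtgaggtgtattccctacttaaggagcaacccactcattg
The first window (chr2:27676951-27677250, variant 1) had a GC content of 83.0%, 55 CpG dinucleotides and 4 GC boxes, and it held no AGGTCA. The second (chr2:27709042-27709341, variant 2) had a GC content of 54.3%, 1 CpG, 2 copies of AGGTCA and no GC box. Among 32851 promoter windows of the same length, 35.7% held a GC box and 16.3% held AGGTCA, and the median GC content was 52.7% with a median of 7.00 CpG. A match to these letters is a description of the window and no evidence of binding.

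The liver X receptors LXRβ (Nr1h2) and LXRα (Nr1h3) are activated by oxysterols and drive genes of cholesterol efflux and lipogenesis. Both were lower in the AAV-Wee1-AS library. Nr1h3 (chr2:91184061-91202829), the form enriched in liver, had 8704 and 4724 counts (149 and 95.2 TPM), a log2 ratio of -0.60 [-0.66, -0.55] or a 1.52-fold lower level. It went from rank 3 to rank 5 among the 49 receptors. Nr1h2 (chr7:44549616-44553968), the widely expressed form, had 2762 and 1204 counts (41.4 and 21.3 TPM). Its log2 ratio of -0.92 [-1.02, -0.82], a 1.89-fold lower level, was the lowest of the 10 members. Nr1h3 remained the more abundant form, at 3.59 times the TPM of Nr1h2 in AAV-GFP and 4.47 times in AAV-Wee1-AS. With the trends removed the log2 ratios were 0.15 for Nr1h3, which turned its direction, and -0.10 for Nr1h2.

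Of the 6 transcripts of Nr1h3, 4 had an interval wholly under 0. Variant 2 had 3466 and 1877 counts (-0.61 [-0.69, -0.53] on the log2 scale), variant 3 had 3523 and 1733 (-0.75 [-0.83, -0.66]), and variant 1 had 715 and 413 (-0.51 [-0.69, -0.34]). The model transcript X1 had 487 and 373 counts, and its interval of -0.31 to 0.09 included 0, as did that of X3 (183 and 160 counts, -0.23 to 0.40). In Nr1h2 the transcripts were unequal. Variant 2 had 955 and 726 counts (-0.12 [-0.26, 0.02]), and its share of the gene was 34.6% in AAV-GFP and 60.3% in AAV-Wee1-AS. Variant 4 had 599 and 273 counts (-0.85 [-1.07, -0.65]). Variant 3 had 549 and 116 (-1.95 [-2.27, -1.67]), and model transcript X1 had 555 and 41 (-3.42 [-3.98, -3.02]). These Nr1h2 transcripts start within 100 bases of each other and share most of their sequence, with lengths from 2006 to 2021 bases, so the program's split of reads between them enters each of these values. The promoter window of that shared start (chr7:44553916-44554215, minus strand) is shown for the member with the lowest ratio. It held neither AGGTCA nor a GC box, with 19 CpG and a GC content of 50.7%, while the GC content of the transcript was 60.6%.
Nr1h2: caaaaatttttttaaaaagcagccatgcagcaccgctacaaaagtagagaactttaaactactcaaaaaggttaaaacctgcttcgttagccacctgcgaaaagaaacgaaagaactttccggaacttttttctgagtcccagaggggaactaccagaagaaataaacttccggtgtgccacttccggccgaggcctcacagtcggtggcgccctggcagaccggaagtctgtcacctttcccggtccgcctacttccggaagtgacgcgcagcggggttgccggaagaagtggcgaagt

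The xenobiotic receptors PXR (Nr1i2) and CAR (Nr1i3) sense drugs, steroids and bile acids and drive cytochrome P450 genes. Both were slightly higher in the AAV-Wee1-AS library. Nr1i3 (chr1:171213934-171218845) had 4645 and 4923 counts (96.6 and 115 TPM), a log2 ratio of 0.36 [0.30, 0.42], and ranked 4 among the receptors in both libraries. Nr1i2 (chr16:38248349-38294849) had 3840 and 3501 counts (46.6 and 50.4 TPM), a log2 ratio of 0.14 [0.08, 0.21]. Its raw count was lower and its scaled level slightly higher, by a log2 ratio that was 0.07 when scaled by library totals and 0.01 by the upper quartile. Nr1i3 was 2.07 times as abundant as Nr1i2 in AAV-GFP and 2.27 times in AAV-Wee1-AS. With the trends removed the log2 ratios were 0.83 for Nr1i3 and 0.61 for Nr1i2, the only members that lay further from 0 on that scale in the same direction.

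Most Nr1i2 counts were on variant 1, with 3421 in AAV-GFP (89.1%) and 3091 in AAV-Wee1-AS (88.3%). The lesser Nr1i2 transcripts went opposite ways, variant 2 with 249 and 123 counts (-0.73 [-1.06, -0.42]) and model transcript X4 with 128 and 210 (0.98 [0.67, 1.32]). Variant 1 of Nr1i3 had 2850 and 2745 counts, or 61.4% and 55.8% of the gene. Variant 3 had 649 and 488, with an interval that included 0 (-0.31 to 0.04), and variant 2 had 403 and 250 (-0.41 [-0.64, -0.18]). The longer model transcript X2, of 2302 bases beside 1414 for variant 1, had 300 and 920 counts (1.89 [1.70, 2.09]) and was the Nr1i3 transcript with the highest ratio of those named. Nr1i3 overlaps Tomm40l, a gene of the outer mitochondrial membrane, over 1044 bases, and Tomm40l had 1358 and 637 counts. The kit marks the strand, but whether the counting used it is not given in the sources used here, so reads in the overlap could be shared between these genes.

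Nr3c1 encodes the glucocorticoid receptor, which waits in the cytoplasm on a chaperone complex and, bound by corticosterone, drives gluconeogenic and anti-inflammatory transcription. It stood highest of the 10 in the comparison. The gene, on chromosome 18, had 671 counts in AAV-GFP and 3025 in AAV-Wee1-AS (3.15 and 16.8 TPM). Its log2 ratio of 2.45 [2.33, 2.57] is a 5.45-fold higher level, and its rank among the 49 receptors was 25 and 17. With the trends removed the log2 ratio was 0.89, still the highest of the 10 but under 2-fold. The counts were spread over 15 transcripts in 8 groups of starts, of which 7 lie 27.5 to 30.1 kb downstream of the first. In AAV-GFP 10 of the 15 transcripts, and 4 of the 8 start groups, held no count, while in AAV-Wee1-AS these 4 groups held 462, 315, 292 and 486 counts, or 51.4% of the gene. A count of 0 among 671 allows a share of up to 0.447% at 3 counts. The share of all transcripts that held counts in only 1 library is not given here, so these zeros are not shown to be particular to Nr3c1.

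The start that held most of the Nr3c1 counts in AAV-GFP had a far smaller ratio than the gene. It is the start of variant 3, with 409 counts in AAV-GFP and 443 in AAV-Wee1-AS, a log2 ratio of 0.39 [0.20, 0.59], and its share of the gene was 61.0% and 14.6%. The start of variant 4 held 159 and 195 counts (0.57 [0.26, 0.88]). The start of model transcript X1 held 94 and 820 (3.37 [3.09, 3.73]). The last group, of model transcript X7, held 9 and 12 counts, too few to separate (-0.68 to 2.12). Most of the difference between the libraries in Nr3c1 thus lay in starts other than those of variants 3 and 4. Transcripts that share all but their first exon are told apart by few reads, and at 671 counts a gene's transcripts may be listed at 0 through this assignment. The part of the assignment in these values was not tested.

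**Figure D3:**
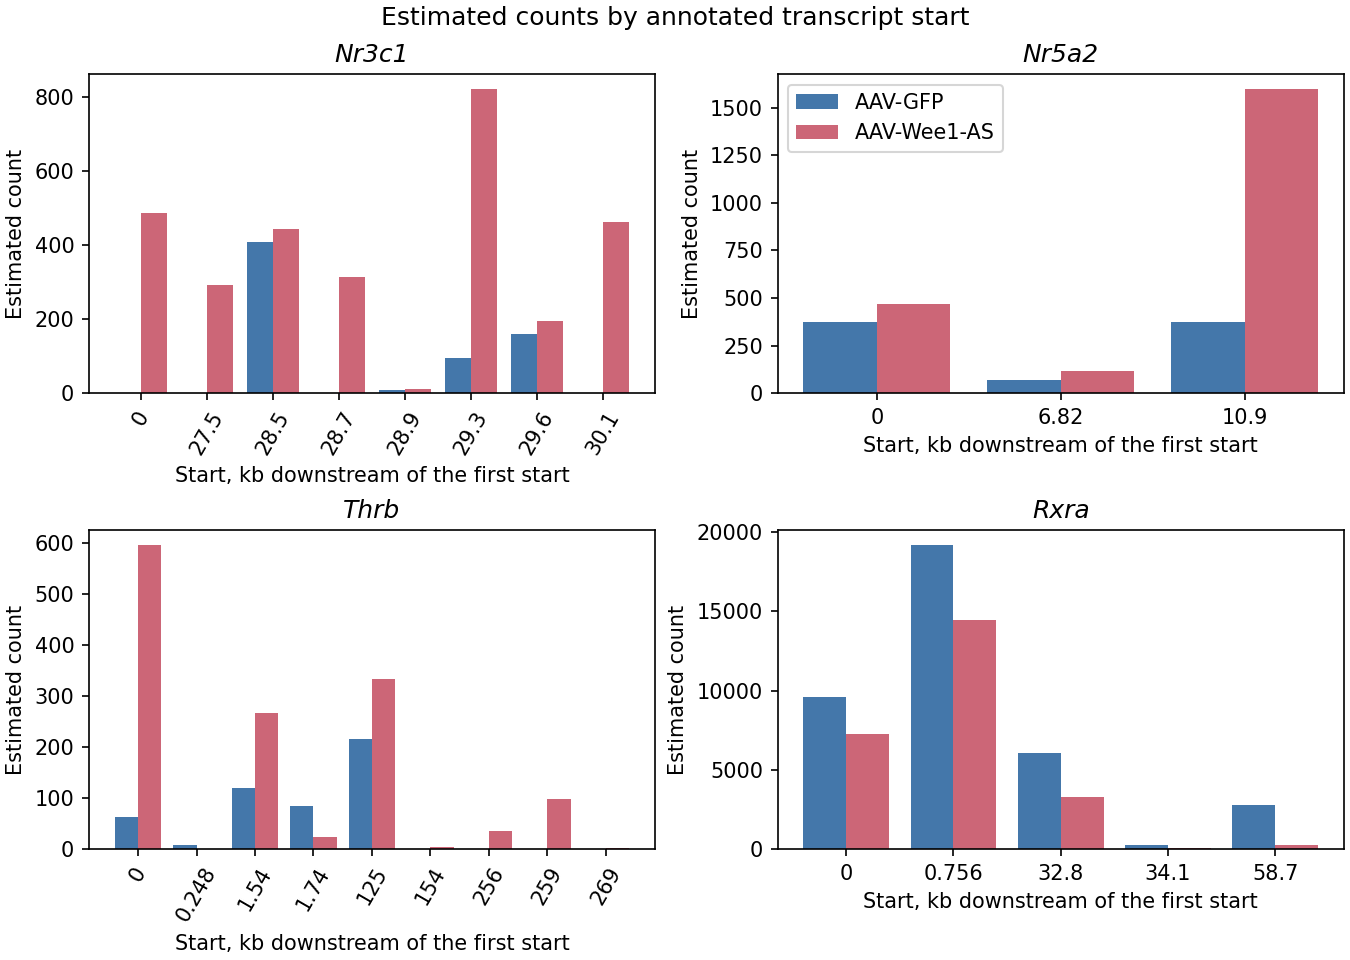
Estimated counts (vertical axis, linear from 0) by annotated transcript start, given as kb downstream of the first annotated start of each gene, for Nr3c1, Nr5a2, Thrb and Rxra in the AAV-GFP and AAV-Wee1-AS libraries, with starts at 0 in both left out. Most of the added counts sit on the start at 10.9 kb in Nr5a2 and on the first start in Thrb, while in Nr3c1 they are spread over several starts. In Rxra the start at 58.7 kb goes from 2779 to 244 counts, the lowest ratio of the 5 starts.

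Thrb encodes the thyroid hormone receptor β, the form through which triiodothyronine acts on cholesterol and fatty acid metabolism in the liver. The gene (chr14:17659225-18040097) had 491 counts in AAV-GFP and 1358 in AAV-Wee1-AS (2.04 and 6.06 TPM). The log2 ratio was 1.74 [1.60, 1.90], a 3.34-fold higher level, and 0.23 with the trends removed. Its paralog Thra, the form that is prominent in heart and brain, went the other way, with 1388 and 574 counts (13.1 and 5.62 TPM) and a log2 ratio of -0.99 [-1.14, -0.85]. Thrb was thus at 0.155 times the TPM of Thra in AAV-GFP and at 1.08 times in AAV-Wee1-AS. Thra overlaps Nr1d1 over 1075 bases, and Nr1d1 was also lower in AAV-Wee1-AS, with 7777 and 2733 counts. The GC content of the Thrb transcript was 44.1% and that of Thra 59.8%, and with the trends removed Thra was at -0.65.

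Within Thrb the transcripts again went different ways. The first start, of model transcript X2, held 64 of 491 counts in AAV-GFP and 595 of 1358 in AAV-Wee1-AS (3.45 [3.12, 3.89]). The start at 125 kb, of model transcript X4, held 215 and 333 (0.90 [0.66, 1.16]), and that at 1.54 kb held 119 and 266 (1.42 [1.12, 1.76]). Variant 1, which starts at 1.74 kb and was the only curated transcript of Thrb with counts, had 84 and 23 (-1.52 [-2.32, -0.91]). On curated transcripts alone, therefore, Thrb was lower in AAV-Wee1-AS, while on all 20 transcripts it was higher. Variant 2, which starts 322 kb downstream, was at 0 in both libraries. Of the 20 transcripts, 14 held no count in AAV-GFP and 6 held none in AAV-Wee1-AS, again without the share over all transcripts.

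Nr5a2 encodes LRH-1, an orphan receptor that binds DNA as a monomer and acts on bile acid synthesis and on the small heterodimer partner. The gene (chr1:136842562-136960448, minus strand) had 815 and 2184 counts (5.81 and 17.8 TPM), a log2 ratio of 1.70 [1.58, 1.82] or a 3.24-fold higher level. With the trends removed the ratio was 0.53. Model transcript X2, which starts 10.9 kb downstream of the first start, had 373 and 1596 counts (2.37 [2.21, 2.54]) and 45.8% and 73.1% of the gene. The first start, shared by variant 1 and model transcript X1, held the same 373 counts in AAV-GFP and 469 in AAV-Wee1-AS (0.61 [0.41, 0.81]). Variant 1 from there had 227 and 396 (1.07 [0.84, 1.32]), whereas X1 had 146 and 73 (-0.71 [-1.15, -0.31]). The start of variant 2, at 6.82 kb, held 69 and 119 counts (1.04 [0.62, 1.51]). These windows are shown because the starts of this gene gave unequal ratios, and RefSeq windows were at hand for 2 of the 3, the start of variant 2 and then the first start.
Nr5a2 variant 2: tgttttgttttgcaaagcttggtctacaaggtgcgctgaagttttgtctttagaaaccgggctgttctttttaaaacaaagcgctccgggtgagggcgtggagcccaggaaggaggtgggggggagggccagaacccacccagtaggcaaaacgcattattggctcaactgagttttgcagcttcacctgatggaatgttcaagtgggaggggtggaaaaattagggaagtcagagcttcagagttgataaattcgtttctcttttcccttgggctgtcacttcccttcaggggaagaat
Nr5a2 first start: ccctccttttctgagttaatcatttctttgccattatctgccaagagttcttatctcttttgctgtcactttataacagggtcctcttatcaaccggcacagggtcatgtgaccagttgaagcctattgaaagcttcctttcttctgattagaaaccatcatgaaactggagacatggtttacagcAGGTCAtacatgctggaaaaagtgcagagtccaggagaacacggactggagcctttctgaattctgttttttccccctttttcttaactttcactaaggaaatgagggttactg
The window of variant 2 (chr1:136953581-136953880) had a GC content of 49.0% and neither motif. That of the first start (chr1:136960399-136960698) had a GC content of 42.0%, 1 copy of AGGTCA and 1 TATA motif. That motif was searched as TATAAA, or TTTATA where read on the other strand, and 13.6% of all windows held it.

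The COUP family members Nr2f2 (COUP-TFII) and Nr2f6 (EAR2) are orphan receptors that act mostly as repressors. Nr2f6 (chr8:71374118-71381967, minus strand) had 5703 and 2557 counts (77.2 and 40.7 TPM), a log2 ratio of -0.88 [-0.95, -0.81] or a 1.84-fold lower level. Nr2f2 (chr7:70351946-70366746) had 609 and 679 counts (4.62 and 5.91 TPM), a log2 ratio of 0.43 [0.27, 0.59]. The pair thus went opposite ways, and Nr2f6 was 16.7 times as abundant as Nr2f2 in AAV-GFP and 6.89 times in AAV-Wee1-AS. Removal of the trends turned Nr2f2 to -0.42 and left Nr2f6 at -0.28. The transcript of Nr2f6 had the highest GC content of the 10, at 67.3%, and that of Nr2f2 had 45.3%. COUP-TFII is known from venous endothelium and mesenchymal cells as well as hepatocytes, and in bulk liver RNA the number of cells of a type and the RNA per cell cannot be told apart.

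The curated transcript of Nr2f6 had 4733 and 2268 counts (-0.78 [-0.86, -0.71]). Model transcript X1 from the same start had 684 and 95 (-2.55 [-2.90, -2.26]), and X3, which starts 3.60 kb downstream, had 233 and 165 with an interval that included 0 (-0.52 to 0.07). In Nr2f2, variant 1 had 333 and 413 counts (0.59 [0.38, 0.80]) and model transcript X2 had 236 and 149 (-0.38 [-0.69, -0.08]). Its scarce transcripts were higher, X1 with 25 and 76 counts (1.79 [1.21, 2.60]) and variant 2 with 15 and 41 (1.59 [0.84, 2.69]). The promoter window of Nr2f6 (chr8:71381903-71382202, minus strand) is shown because its base composition stood near that of Rxra variant 1, with a GC content of 82.7%, 53 CpG and 7 GC boxes.
Nr2f6: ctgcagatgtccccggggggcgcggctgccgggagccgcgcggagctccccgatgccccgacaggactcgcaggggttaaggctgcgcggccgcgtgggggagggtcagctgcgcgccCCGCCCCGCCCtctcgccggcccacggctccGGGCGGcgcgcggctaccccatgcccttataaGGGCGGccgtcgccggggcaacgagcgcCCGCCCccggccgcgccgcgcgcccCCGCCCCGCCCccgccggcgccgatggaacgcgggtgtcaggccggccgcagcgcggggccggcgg

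The order of the 10 ratios followed the GC content of the transcripts closely, with a Spearman coefficient of -0.96 over the 10 genes, and of 0.73 with transcript length. These points share the same 2 libraries, and the coefficients are descriptions. To place each member among genes of like composition, the 14995 genes with a known GC content were divided into 10 groups of rising GC. Nr3c1 (42.2%) and Nr5a2 (43.2%) fell in a group from 41.6% to 44.0%, where the median log2 ratio was 1.14 and 56.4% of genes were above 2-fold. Thrb and Nr2f2 fell in the next group, up to 46.1%, with a median of 0.73 and 38.9% above 2-fold, so that Nr2f2 at 0.43 lay under the median of its group and Thrb at 1.74 above it. Nr1i2 (53.2%) and Nr1i3 (53.0%) were higher in AAV-Wee1-AS in a group whose median was -0.32. Rxra and Nr1h3 fell in a group from 55.4% to 57.7% with a median of -0.60, which Nr1h3 met and Rxra exceeded. Nr1h2 and Nr2f6 fell in the group of highest GC, with a median of -0.68 and 19.9% of genes below 0.5-fold.

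**Figure D4:**
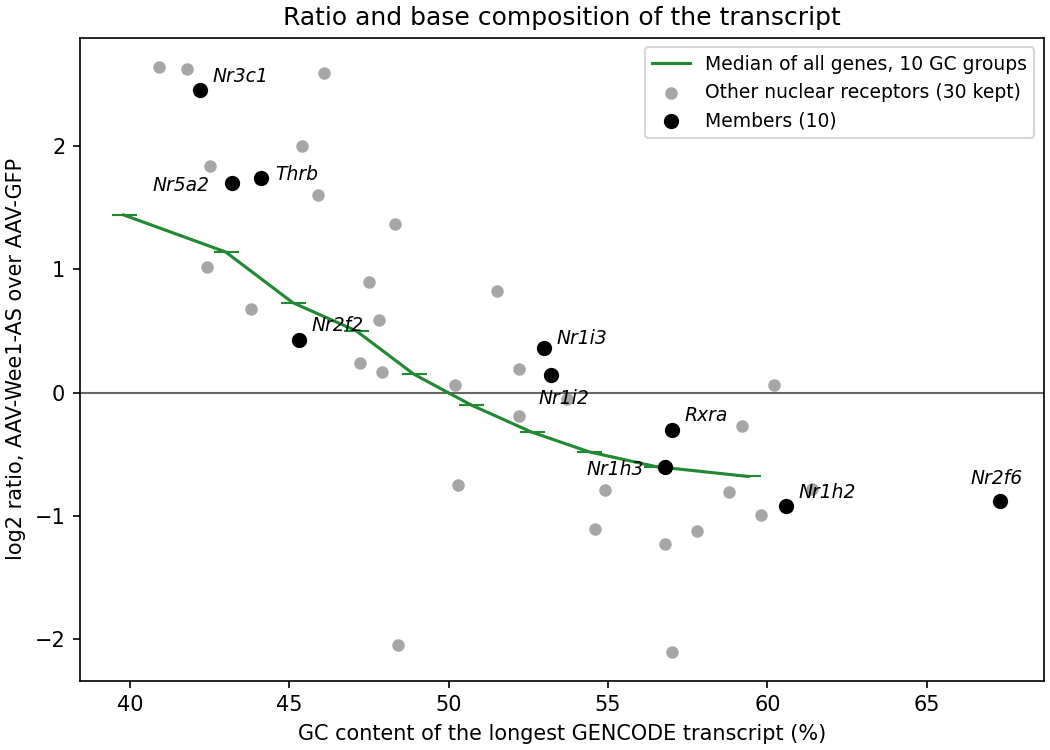
The log2 ratio of AAV-Wee1-AS over AAV-GFP (vertical axis) against the GC content in % of the longest GENCODE transcript (horizontal axis) for the 10 members (black) and 30 other nuclear receptors (grey), with the median of all genes in 10 GC groups as a line. The line runs from 1.44 at low GC to -0.68 at high GC, and the members lie along it, with Nr3c1, Thrb and Nr5a2 above it at low GC and Nr1i2 and Nr1i3 above it near 53% GC.

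Next, the other 39 nuclear receptors were counted in the same way. In what follows, parentheses give the counts in AAV-GFP and AAV-Wee1-AS, then the log2 ratio of the scaled counts and, after a slash, the log2 ratio with the trends removed. The counting interval of the scaled ratio of each of these genes excluded 0. Of the 39, 30 passed the count filter, 8 were above 2-fold and 5 below 0.5-fold, beside 22.5% and 8.43% of all genes, with a median log2 ratio of 0.11. With the trends removed 2 were above and 2 below, beside 6.98% and 7.76%. Rora (358 and 1851 counts, 2.64 / 0.79) and Nr1d2 (666 and 3389 counts, 2.62 / 1.26), both of the circadian clock, and Nr2c2 (145 and 728 counts, 2.59 / 1.52), the orphan receptor TR4, had the highest ratios. The estrogen receptor gene Esr1 (194 and 645 counts, 2.00 / 0.97) was higher too, as were Esrrg (68 and 205 counts, 1.84 / 0.40) and Nr6a1 (124 and 268 counts, 1.37 / 0.77). Lower were Nr4a1 (257 and 48 counts, -2.10 / -1.52), an immediate early gene, Nr1d1 (7777 and 2733 counts, -1.23 / -0.57), Nr0b2 (2304 and 872 counts, -1.12 / -0.29) and Rxrg (551 and 209 counts, -1.11 / -0.52). Of the named ones, Nr2c2, Nr1d2 and Nr4a1 were still past 2-fold with the trends removed. The receptors nearest to Nr3c1 in log2 ratio, over 2 libraries, were Nr2c2 at a distance of 0.14 and Nr1d2 at 0.17. Those nearest to Nr1h2 were Nr2f6 at 0.04 and Thra at 0.07.

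The proteins that receptors work with were examined next. The counts of this and the following lists stand beside 22.5% of all genes above 2-fold and 8.43% below 0.5-fold as scaled counts, and beside 6.98% and 7.76% with the trends removed. Of 12 coactivators, 7 were above 2-fold and none below 0.5-fold, with a median of 1.06, and 1 was above with the trends removed (median 0.44). Kat2b, a histone acetyltransferase (963 and 2726 counts, 1.78 / 1.08), Ncoa2, a p160 coactivator (613 and 1699 counts, 1.74 / 0.75), and Med1, the Mediator subunit that contacts receptors (346 and 739 counts, 1.37 / 0.40), led the list. Of 9 corepressors, 4 were above and 1 below, with a median of 0.75 that was 0.08 with the trends removed, where none was past 2-fold. Here Nrip1 (123 and 553 counts, 2.43 / 0.83), which recruits deacetylases, Tbl1xr1 (286 and 1187 counts, 2.32 / 0.52) and Ncor1 (1432 and 3782 counts, 1.68 / 0.80), both of the NCoR complex, were highest. The corepressor below 0.5-fold was Nr0b2, which is counted as well among the other receptors and among the LRH-1 targets. The medians of coactivators and of corepressors both lay above that of all genes.

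Of 8 chaperones and co-chaperones of steroid receptors, 3 were above 2-fold, and the median was 0.51. They were Hsp90aa1, an inducible HSP90 (1700 and 4583 counts, 1.71 / 0.89), Fkbp5, which holds the glucocorticoid receptor in a state of low affinity and is itself a glucocorticoid target (1441 and 3538 counts, 1.57 / 1.66), and Ptges3, the co-chaperone p23 (1484 and 2613 counts, 1.09 / 0.30). On the scale with the trends removed, 2 of the 8 were above 2-fold, among them Fkbp5 at 1.66. Among 12 genes that supply or remove ligands, 2 were above and 1 below, or 1 and 1 with the trends removed, with a median of -0.08. Slco1a1, an organic anion transporter that carries bile acids and steroid conjugates, had the highest ratio of the lists, with 668 and 7028 counts, a log2 ratio of 3.67 [3.56, 3.79] and 2.25 with the trends removed. Cyp7b1, an oxysterol hydroxylase (2316 and 4623 counts, 1.27 / 0.32), and Slc16a10, a transporter of thyroid hormone and aromatic amino acids (2572 and 3958 counts, 0.90 / 0.23), followed.

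Known target genes were then set beside the receptors, without reading activity of a receptor from them. Of 11 LXR targets, 1 was above 2-fold, none was below 0.5-fold, and the median was -0.26. After removal of the trends 1 was below and none above. Abca1, the cholesterol efflux pump, was the one above (2880 and 5957 counts, 1.33 / 0.31), while the lipogenic Fasn (88364 and 45025 counts, -0.69 / -0.73) and the phospholipid transfer protein Pltp (6041 and 3169 counts, -0.65 / 0.14) were lower as scaled counts. With the trends removed Pltp turned direction and Fasn did not. Of 13 PXR and CAR targets, 3 were above and 2 below, with a median of 0.12. With the trends removed 2 were above and 3 below, and the median was -0.13. The list included Cyp2c54 (1292 and 5082 counts, 2.25 / 1.31) and Cyp2c50 (12459 and 25390 counts, 1.30 / 0.17), members of a family of like sequences among which reads may be split. It also held the stress gene Gadd45b (106 and 12 counts, -2.69 / -1.89).

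Of 15 glucocorticoid receptor targets, 2 were above 2-fold and 2 below 0.5-fold, with a median of -0.32. Fkbp5 and Klf9, a Krüppel-like repressor (1282 and 2771 counts, 1.39 / 0.84), were higher, and Cdkn1a, the cell cycle inhibitor p21, was lower (2044 and 602 counts, -1.48 / -0.87). After removal of the trends 3 were above and none below, and the median was -0.37. The median of the list was thus under 0 on both scales while Nr3c1 was higher on both. Of 8 LRH-1 targets, 1 was above, 1 below and the median was -0.43, while with the trends removed 1 was above, none below and the median was 0.08. Cyp7a1, the rate-limiting enzyme of bile acid synthesis, had 486 and 2362 counts, a log2 ratio of 2.55 [2.42, 2.70] and 1.13 with the trends removed, while Nr0b2, the small heterodimer partner that represses it, was lower at -1.12 and Plk3 at -0.91 (4349 and 1911 counts), values that came to -0.29 and -0.14 once the trends were removed. Of 8 thyroid hormone targets, 1 was above and 1 below on both scales, with a median of 0.27, or 0.41 with the trends removed. Klf9 also belongs to this list, beside the lipogenic Thrsp (29695 and 38988 counts, 0.67 / 1.16) and the corepressor Hr (144 and 26 counts, -2.12 / -1.74).

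**Figure D5:**
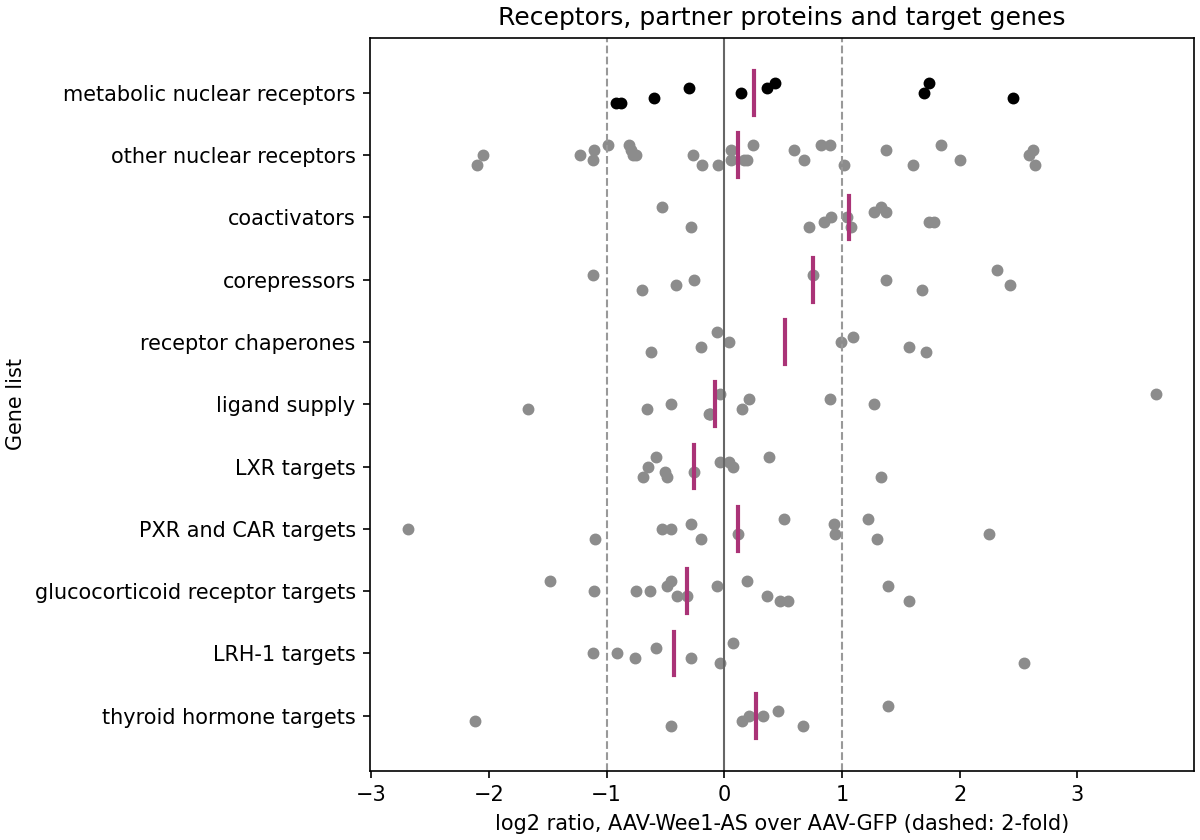
The log2 ratio of AAV-Wee1-AS over AAV-GFP (horizontal axis, 1 point per gene, vertical jitter for legibility) for the 10 members and for each list of other receptors, partner proteins, ligand-supply genes and target genes (vertical axis), with the median of each list as a bar. Coactivators have the highest median, 1.06, and LRH-1 targets the lowest, -0.43, while the members themselves have 0.25.

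Markers of the cell types that whole liver holds were counted beside the receptors. Of 10 endothelial markers none was past 2-fold on either scale, and their summed level was 236 TPM in AAV-GFP and 176 TPM in AAV-Wee1-AS. Of 10 stellate cell markers 3 were above and 3 below, or 0 and 2 with the trends removed, summing to 247 and 186 TPM, and of 6 cholangiocyte markers none was past 2-fold on either scale, summing to 48.1 and 42.8 TPM. Of 8 Kupffer cell and macrophage markers 3 were above and none below, or 1 and 0 with the trends removed, summing to 428 and 332 TPM. Of 4 smooth muscle markers 3 passed the filter and 2 were below on both scales, summing to 19.3 and 4.11 TPM. Of these lists, only that of smooth muscle had a marker at 0, Cnn1, in both libraries. The part of cell composition in the ratios of the receptors was not tested.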

How the data were processed

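Poly-A RNA of mouse liver was sequenced from libraries made with a TruSeq Stranded kit, with 1 library in each group. The authors deposited 1 table of RefSeq transcripts on build mm10, and the submitters' processing notes name Trimmomatic 0.38, HISAT2 2.1.0, SAMtools 1.9 and StringTie 2.1.3b without giving their roles. The deposited estimated counts are not normalized. They equal the product of FPKM, transcript length and a constant, rounded up, in 97.2% and 97.3% of transcripts. The FPKM and TPM values deposited by the authors are per length and library, and TPM was used for levels. Depth was 55466182 and 48079335 counts. Whether the counting used the strand is not given in the sources used here.

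Estimated counts were summed per gene symbol, and a gene was kept if either library gave it 10 counts or more. Scaling was by TMM (edgeR 4.0.16, R 4.3.3), log2 ratios used a prior count of 2, and intervals were exact (Clopper-Pearson, 95%). A ratio above 2 or below 0.5 counted as past 2-fold. No test was run, since no group has replicates. Scripts were tested on simulated data. GC content came from the longest GENCODE M21 transcript (94.6% of genes kept) and length from the longest deposited transcript, and both trends were removed by lowess (span 0.3, 5 cycles, statsmodels 0.14.6, Python 3.11.15). Transcript starts within 100 bases were merged. Promoter windows came from RefSeq, with 13 windows for 9 of the members.

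The members and gene lists were chosen with earlier results of these data known. Named were all members and their transcripts with at least 5% of the member's count in a library, up to 3 genes per list with the largest absolute ratio and at least 100 counts, other nuclear receptors past 2-fold with at least 100 counts, and the receptors nearest to the highest and lowest member. An item that this rule names is not reported here. Thra is also named as a paralog. Hnf4a, Alb, Tomm40l and Cnn1 were named after their values were seen. Alternatives were other scalings (library totals, DESeq2 1.42.0 size factors, upper quartile), a prior count of 0.5, TPM or FPKM with a pseudocount of 1, other count filters and transcript subsets, and removal of trends. An exact product of FPKM and length in place of the rounded counts was added after the data were seen. Wee1-AS itself was not analysed here.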

Additional observations from a re-analysis of the deposited data

How the results depend on the processing

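No paired analysis was possible because each group has 1 library, and for the same reason no library could be left out. Over the 14 alternatives, Nr3c1 was higher in AAV-Wee1-AS in 14 and past 2-fold in 13, and Nr5a2 in 14 and 13, the exception in both being removal of the GC and length trends. Thrb was above 2-fold in 10. On curated transcripts only its direction turned, to a log2 ratio of -1.52, and it lay inside 2-fold with FPKM and a pseudocount of 1 (0.99), with the length trend removed (0.69) and with both trends removed (0.23). The FPKM and the length settings thus left 2 members past 2-fold. Nr1h3 and Nr2f2 turned direction with the GC and length trends removed, and Rxra came to 0.00186. On that setting the number of members past 2-fold, and the number above it, was 0. Rxra was lower in 13 of the 14 alternatives, down to -0.79 with the length trend alone removed. Scaling by the upper quartile gave 5 members past 2-fold, with 2 below 0.5-fold (Nr1h2 at -1.05 and Nr2f6 at -1.01), and moved the median of all genes to -0.13. Curated transcripts only put 1 member below 0.5-fold. The median log2 ratio of the members, 0.25 as reported, was 0.18 with library totals, with TPM and a pseudocount of 1 and with the most abundant transcript alone, 0.15 with FPKM and a pseudocount of 1, 0.13 with the length trend removed, 0.19 with the GC and length trends removed, 0.12 with the upper quartile and -0.08 on curated transcripts only. The cause of these shifts was not tested. Counting intervals were wider for the scarce members than for the abundant ones. Thrb, with 491 counts in AAV-GFP, had an interval from 1.60 to 1.90, and Nr2f2, with 609, from 0.27 to 0.59. That of Rxra, with 37890, ran from -0.33 to -0.28.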
